A study of Mus musculus with 6 samples.

Results

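The genes described here are 10 RNA-binding proteins of mouse cells: Lin28a and Lin28b, the polypyrimidine tract-binding proteins Ptbp1 and Ptbp2, the epithelial splicing regulators Esrp1 and Esrp2, and the splicing regulators Rbfox2, Nova1, Celf2 and Mbnl2. They were chosen by name as regulators of RNA processing with known roles in stem cells, epithelia or neural cells. Earlier results of these data were known when they were chosen, and 6 of them form 3 paralog pairs. They are 10 of the 37620 genes counted, and all 10 passed the filter on low counts. RNA was measured in 3 groups of cultured mouse cells of the J1 line, with 2 libraries in each. The Phc1-KO libraries carry the genotype Phc1-/- and come from cells derived from J1 embryonic stem cells. The NPC libraries are wild-type neural progenitor cells made from the same line by differentiation in culture. The ESC libraries are wild-type J1 embryonic stem cells. Per the labels, stem cells grew with LIF and serum on inactivated embryonic fibroblasts and were separated from these feeders before use; no drug treatment is listed for any group. Phc1 encodes a subunit of Polycomb repressive complex 1. The labels do not say which exons were deleted or whether the Phc1-KO cells are 1 clone.

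Lin28 proteins bind the loop of let-7 precursor RNAs and block their maturation, so that let-7 microRNAs stay low in pluripotent cells; let-7 in turn represses Lin28 messages. Ptbp1 binds pyrimidine-rich stretches beside exons and commonly causes the exon to be skipped, including an exon of Ptbp2 whose skipping leads to decay of the Ptbp2 message; neural cells replace Ptbp1 with Ptbp2 as they mature. Esrp proteins direct the splice forms typical of epithelia, while Rbfox, Nova, Celf and Mbnl proteins direct forms typical of brain, muscle and differentiated tissue.

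Gene counts per library ran between 15226214 and 21893821 reads. Levels are given as CPM, a gene's counts relative to the TMM-scaled library size. Beyond counting noise, the Phc1-KO pair differed by 18.1% (coefficient of variation), the NPC pair by 27.5% and the ESC pair by 1.98%. The fit shares 1 estimate of spread per gene over all groups, so each comparison also takes in the spread of the third group. P-values measure only the spread between these libraries. The ESC pair lay close to counting noise, and fits with it counted as 1 library are also given. Reads outside genes amounted to 1.08 per gene count in Phc1-KO 1 and 0.661 in Phc1-KO 2. The cell type entry of the Phc1-KO libraries reads NPC, whereas the study's title and design call them stem cells. The 6 pluripotency markers summed to 1767 and 2131 CPM in Phc1-KO, 11.8 and 13.8 CPM in NPC, and 1831 and 1839 CPM in ESC. The entry thus goes against the data. Within that sum Nanog, Klf4 and Esrrb were lower in both Phc1-KO libraries than in both ESC libraries. Pou5f1 and Zfp42 were higher, and Tdgf1 overlapped. Phc1 itself had 325.9 and 267.1 CPM in the libraries labelled Phc1-KO and 459.1 and 459.9 CPM in ESC (log2 fold change -0.63, SE 0.15, edgeR adjusted p = 0.0412). Gene counts do not show which of its exons were read, and every direction given for Phc1-KO rests on that label.

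RNA targets of the Lin28 and Ptbp proteins are shown first, as background. The results below are counts per gene and do not measure binding to these sequences. Mature let-7 sequences are from RefSeq; capitals mark the seed, bases 2 to 8. All 9 let-7 family sequences in that table share the seed GAGGUAG and differ only outside it.
mmu-let-7a-5p: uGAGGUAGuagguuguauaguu
mmu-let-7c-5p: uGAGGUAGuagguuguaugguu
mmu-let-7d-5p: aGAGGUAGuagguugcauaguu
mmu-let-7g-5p: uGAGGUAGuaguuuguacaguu

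The loop of a let-7 precursor is where Lin28 binds, and the motif searched there was GGAG, on the RNA strand, between the mature arms. In the hairpins below, from RefSeq on GRCm38.p6, capitals mark that motif in the loop. Mirlet7c-1 lies at chr16:77599657-77599750 on the plus strand and Mirlet7g at chr9:106178840-106178927 on the plus strand.
Mirlet7c-1: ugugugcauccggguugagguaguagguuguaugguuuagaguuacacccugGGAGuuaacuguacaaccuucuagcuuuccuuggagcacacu
Mirlet7g: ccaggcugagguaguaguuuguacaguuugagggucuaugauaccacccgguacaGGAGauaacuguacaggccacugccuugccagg
GGAG lay between the arms in 8 of 11 let-7 family hairpins, 72.7%, against 52 of 644 hairpins with both arms annotated, 8.07%. Mirlet7b, Mirlet7c-2 and Mir98 had none. A match describes these letters and not binding.

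The exon of Ptbp2 that Ptbp1 causes to be skipped is 34 bases long and is exon 10 of the annotated gene. It is shown on its own strand with 100 bases before it and 20 after it, in mm9 at chr3:119427510-119427663 on the minus strand, with the exon in capitals.
Ptbp2 exon 10: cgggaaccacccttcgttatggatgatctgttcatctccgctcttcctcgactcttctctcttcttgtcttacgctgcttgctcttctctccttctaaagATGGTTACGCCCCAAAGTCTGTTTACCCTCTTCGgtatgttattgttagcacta
The window before it held TCTT 6 times on the transcribed strand, counting every start, and 73% of its bases were C or T. TCTT occurred in 63.4% of such windows before 174796 internal exons of the annotation, and 0.217% held it at least 6 times. The deposited values are counts per gene, so they do not show how often the exon was included.

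Set against ESC, the NPC libraries had lower levels of both Lin28 genes, Ptbp1 and both Esrp genes, and higher levels of Ptbp2, Rbfox2, Nova1, Celf2 and Mbnl2. The test called 10 of 10 members, where 61.3% of all 17489 genes tested were called; 5 members were higher, against 30.4% of all genes, and 5 were lower, against 30.9%. The changes spanned -9.41 to 2.83 on the log2 scale. Since the members were chosen with earlier results of these data known, their counts beside these shares are no test of the set. For most members, Phc1-KO differed less from ESC than from NPC. In Phc1-KO against ESC, a member that did not pass is not thereby shown to be unchanged. The 95% intervals there were widest for Lin28b (-0.71 to 1.82) and Nova1 (-1.04 to 1.43). There 2 of 10 were called by edgeR and by DESeq2, Esrp1 and Celf2, both lower, and 0 were called higher (1 at an unadjusted p under 0.05); 10.7% of all genes were called, 4.91% higher and 5.75% lower, and with 10 members a count of 2 is close to that share. Against NPC, 9 of 10 members were called in Phc1-KO, 5 higher and 4 lower, where 64.9% of all genes were called, 32.3% higher and 32.7% lower. The comparisons share libraries, so their values are given side by side. The shares of all genes given here also stand beside the counts of the gene lists below. Phc1 and the genes outside the 10 that are named below as called in Phc1-KO against ESC number 15; each lost its call with at least 1 library left out, and all but Krt18 lost it with the ESC pair counted as 1 library. In these bulk samples fewer cells of a type and less RNA per cell cannot be told apart.

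**Figure D1:**
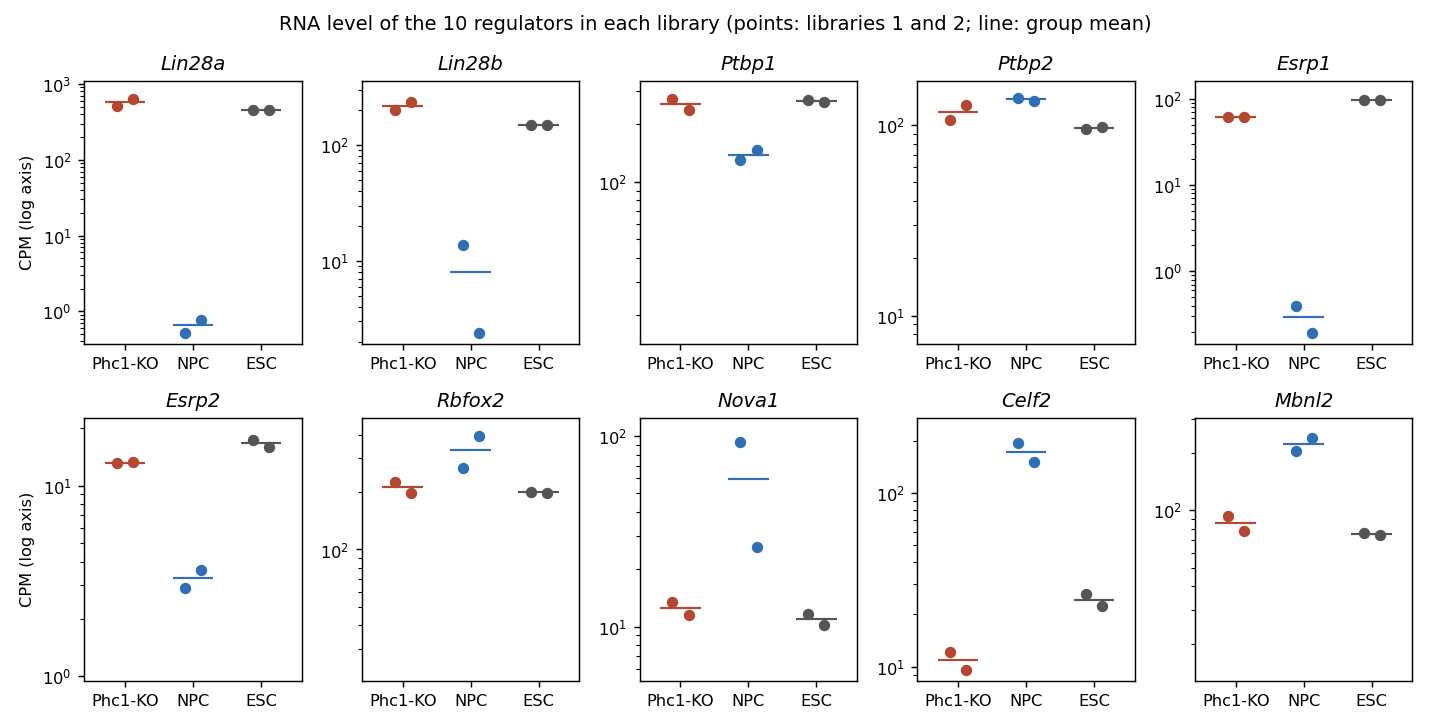
CPM of the 10 regulators (log axis) in each library, with a panel per gene and the groups in the order Phc1-KO, NPC and ESC; points are libraries and lines group means. Lin28a and Esrp1 fall below 1 CPM in both NPC libraries and lie above 60 CPM in the other 4.

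Lin28a, the let-7 inhibitor that acts with terminal uridylyl transferases (mm9 chromosome 4, 133559245 to 133574756, minus strand), had 518.8 and 639.6 CPM in Phc1-KO, 0.525 and 0.778 CPM in NPC, and 447.8 and 450.3 CPM in ESC. The NPC values rest on 8 and 12 counts. NPC lay far below the other 4 libraries, and both Phc1-KO libraries lay above both ESC libraries. The log2 fold change of NPC against ESC was -9.41 (SE 0.24, edgeR adjusted p = 4.62e-06) and that of Phc1-KO against NPC 9.78 (SE 0.25, edgeR adjusted p = 3.69e-06). Phc1-KO against ESC gave 0.37 (SE 0.15, edgeR adjusted p = 0.16), which did not pass.

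Lin28b, the paralog best known from tumours and early development (mm9 chromosome 10, 45096426 to 45206201, minus strand), had 199.5 and 237.4 CPM in Phc1-KO, 13.7 and 2.40 CPM in NPC, and 148.9 and 148.2 CPM in ESC. The NPC libraries were again the lowest, but NPC 1 kept several times the level of NPC 2, on 208 and 37 counts. The change in NPC against ESC was -4.21 (log2, SE 0.63, edgeR adjusted p = 0.00118). It was -5.95 without NPC 1 and -3.44 without NPC 2, and it passed in both fits. Phc1-KO against NPC gave 4.77 (SE 0.65, edgeR adjusted p = 6.77e-04), 6.51 without NPC 1 and 3.999 without NPC 2. Phc1-KO lay above ESC in both libraries by 0.56 (SE 0.54, edgeR adjusted p = 0.533), a difference that did not pass; it passed with only those 2 groups fitted (edgeR adjusted p = 0.0235), without NPC 1 (0.0263) and without NPC 2 (0.0264).

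Per kilobase of exon, the mean level of Lin28a was 165.2 CPM per kb in Phc1-KO, 0.186 in NPC and 128.1 in ESC, and that of Lin28b 24.1, 0.886 and 16.4 CPM per kb in the same groups. The order of the paralogs thus differed in NPC, where both were low. The ratio of Lin28b to Lin28a per length was 0.149 and 0.144 in Phc1-KO, 9.48 and 1.16 in NPC, and 0.129 and 0.127 in ESC. The log2 ratio differed by 4.70 (SE 1.52) between NPC and ESC, by 0.19 (SE 0.03) between Phc1-KO and ESC, and by -4.51 (SE 1.52) between Phc1-KO and NPC. The groups did not overlap in these ratios. For this ratio and for those of the other pairs the exact two-sided permutation test gave p = 0.333, the smallest that 2 against 2 libraries allow, so none of the 9 ratio comparisons could pass.

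**Figure D2:**
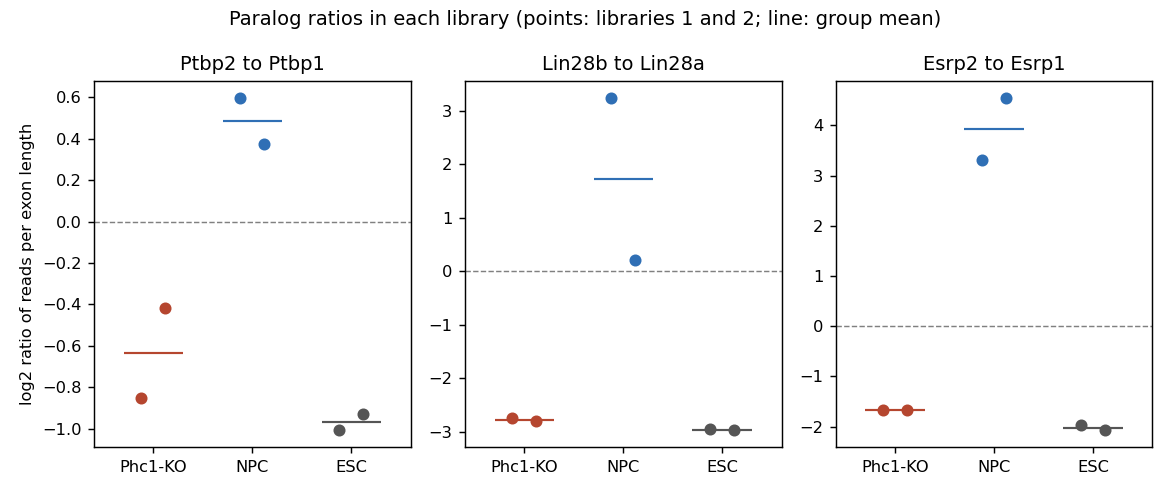
Log2 ratio per exon length of Ptbp2 to Ptbp1, Lin28b to Lin28a and Esrp2 to Esrp1 in each library, by group in the order Phc1-KO, NPC and ESC; lines are group means. The NPC libraries lie highest in each panel, and the 2 NPC libraries are farthest apart for Lin28b to Lin28a.

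The list of let-7 factors and targets held 15 other genes, all tested. In NPC against ESC, 9 were lower and 1 higher (median log2 change -0.60, against -0.01 for all genes). Trim71, an RNA-binding let-7 target of stem cells, changed by -4.64 (SE 0.15). Arid3b, a DNA-binding let-7 target, changed by -4.64 (SE 0.36), and Igf2bp1, an mRNA-binding let-7 target, by -2.81 (SE 0.27). Tut7, a transferase that adds uridines to let-7 precursors, was the 1 that rose, by 0.71 (SE 0.12), a call lost with the ESC pair as 1 library (edgeR adjusted p = 0.0516). Drosha, which cuts primary microRNA transcripts, fell by 1.14 (SE 0.22). Hmga2, a chromatin protein and classic let-7 target, gave -0.36 (SE 0.25, edgeR adjusted p = 0.248), which passed without NPC 2 (-0.69, 0.0487). Set against ESC, Phc1-KO had 0 of these called higher by edgeR (1 at an unadjusted p under 0.05, 1 by DESeq2) and 2 called lower (6 at an unadjusted p under 0.05, 3 by DESeq2; median -0.35): Igf2bp2, an mRNA-binding protein (-0.86, SE 0.19, edgeR adjusted p = 0.0332), and Dis3l2, the nuclease that degrades uridylated let-7 precursors (-0.58, SE 0.15, just under the threshold). Trim71 was at 0.06 (SE 0.12) there.

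Ptbp1, the repressor of neural exons in non-neural cells (mm9 chromosome 10, 79317172 to 79327516, plus strand), had 271.3 and 239.3 CPM in Phc1-KO, 129.8 and 146.1 CPM in NPC, and 270.0 and 262.0 CPM in ESC. Both NPC libraries lay below the other 4, while Phc1-KO and ESC overlapped. NPC against ESC gave -0.95 (SE 0.13, edgeR adjusted p = 8.11e-04) and Phc1-KO against NPC 0.89 (SE 0.13, edgeR adjusted p = 9.75e-04). Phc1-KO against ESC was -0.06, with a 95% interval of -0.37 to 0.25. Of its exon bases 16.3% overlap genes on the opposite strand, and the strand setting of the counts is not given. Such overlap was found for 6 of the 10 members and was largest for Ptbp1.

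Ptbp2, the neural paralog and itself a target of Ptbp1 (mm9 chromosome 3, 119421660 to 119486306, minus strand), had 106.6 and 126.8 CPM in Phc1-KO, 139.2 and 134.4 CPM in NPC, and 95.2 and 97.5 CPM in ESC. The 3 groups did not overlap, with Phc1-KO between the others. The rise in NPC against ESC was 0.51 (SE 0.13, edgeR adjusted p = 0.0135), and it did not pass with the ESC pair counted as 1 library (0.154), without ESC 1 (0.145) or without ESC 2 (0.125). Phc1-KO gave 0.28 against ESC (SE 0.13, edgeR adjusted p = 0.215) and -0.23 against NPC (SE 0.13, edgeR adjusted p = 0.165), so it was not told apart from either neighbour; the second passed without Phc1-KO 2 (adjusted p = 0.0403).

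Per length, Ptbp1 was the higher of the pair in the stem cell groups and Ptbp2 in NPC. Ptbp1 averaged 53.8 CPM per kb in Phc1-KO, 29.1 in NPC and 56.0 in ESC. Ptbp2 averaged 34.7 CPM per kb in Phc1-KO, 40.7 in NPC and 28.6 in ESC. The ratio of Ptbp2 to Ptbp1 per length was 0.555 and 0.748 in Phc1-KO, 1.51 and 1.30 in NPC, and 0.498 and 0.525 in ESC. Its log2 value differed by 1.46 (SE 0.12) between NPC and ESC, by 0.33 (SE 0.22) between Phc1-KO and ESC, and by -1.12 (SE 0.24) between Phc1-KO and NPC.

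Ptbp3, the third paralog, had 127.1 and 142.5 CPM in Phc1-KO, 181.1 and 247.4 CPM in NPC, and 240.6 and 243.7 CPM in ESC. It fell in Phc1-KO against ESC by 0.85 (log2, SE 0.17, edgeR adjusted p = 0.0275), a call that neither Ptbp1 nor Ptbp2 received; the difference between the paralogs was not tested. NPC against ESC gave -0.18 (SE 0.17, edgeR adjusted p = 0.393), with 0.03 without NPC 1 and a called -0.41 without NPC 2 (0.041). The list of transcripts known to be lowered by Ptbp1 through splicing-coupled decay held 4 genes, among them Ptbp2 and Ptbp3. Of the 4, against 30.4% of all genes, 2 were higher in NPC than in ESC. These were Ptbp2 and Dlg4, the postsynaptic scaffold PSD-95, which rose by 1.99 (SE 0.30, edgeR adjusted p = 0.00122). Gabbr1, a GABA-B receptor subunit, gave 0.07 (SE 0.18).

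Esrp1, the main regulator of epithelial splice forms (mm9 chromosome 4, 11259080 to 11313930, minus strand), had 61.0 and 61.9 CPM in Phc1-KO, 0.394 and 0.195 CPM in NPC, and 98.3 and 98.4 CPM in ESC. The groups did not overlap, and the NPC values rest on 6 and 3 counts. NPC against ESC gave -8.35 (SE 0.25, edgeR adjusted p = 5.22e-06) and Phc1-KO against NPC 7.67 (SE 0.25, edgeR adjusted p = 4.55e-06). Phc1-KO was lower than ESC by a log2 change of -0.68 (SE 0.15, edgeR adjusted p = 0.0363). That call was lost with no filter on low counts (edgeR adjusted p = 0.0551), with the ESC pair counted as 1 library (0.312), without ESC 1 (0.335) or ESC 2 (0.321), and without Phc1-KO 1 (0.0901) or Phc1-KO 2 (0.129).

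Esrp2, its paralog (mm9 chromosome 8, 108654219 to 108660874, minus strand), had 13.1 and 13.3 CPM in Phc1-KO, 2.89 and 3.63 CPM in NPC, and 17.3 and 16.0 CPM in ESC. The order of the groups was that of Esrp1, with smaller differences. The NPC values of Esrp2 rest on 44 and 56 counts. Of the Esrp2 exon bases 7.79% overlap genes on the opposite strand, and their part in these counts was not tested. NPC against ESC gave -2.35 (SE 0.22, edgeR adjusted p = 1.56e-04), Phc1-KO against NPC 2.02 (SE 0.22, edgeR adjusted p = 2.54e-04), and Phc1-KO against ESC -0.33 (SE 0.20, edgeR adjusted p = 0.307). Per length, Esrp1 averaged 9.75 CPM per kb in Phc1-KO, 0.0467 in NPC and 15.6 in ESC, and Esrp2 3.05, 0.751 and 3.84 CPM per kb. The ratio of Esrp2 to Esrp1 per length was 0.313 and 0.314 in Phc1-KO, 9.95 and 23.5 in NPC, and 0.256 and 0.237 in ESC. Its log2 value differed by 5.95 (SE 0.62) between NPC and ESC and by 0.35 (SE 0.06) between Phc1-KO and ESC.

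Epithelial genes fell in NPC, as the Esrp pair did. Of 10 listed, 10 were lower in NPC than in ESC (median -8.79) and 5 were lower in Phc1-KO than in ESC (median -0.78). Krt18, a keratin of simple epithelia, changed by -9.99 (SE 0.34) in NPC and by -1.76 (SE 0.18, edgeR adjusted p = 0.00508) in Phc1-KO. The tight junction claudins Cldn6 and Cldn4 fell in Phc1-KO by 1.59 (SE 0.24) and 1.91 (SE 0.26). Cdh1, the adhesion protein E-cadherin, gave -9.25 (SE 0.23) in NPC and -0.10 (SE 0.15, edgeR adjusted p = 0.698) in Phc1-KO against ESC. Of 7 mesenchymal genes tested, 5 were higher in NPC, among them the repressors of epithelial genes Snai2 (2.94, SE 0.38, and 2.34 without NPC 2) and Zeb2 (2.87, SE 0.24), and 1 was lower, the matrix protein Fn1 (-1.91, SE 0.37). For Phc1-KO against ESC edgeR called 0 of the 7, with 1 higher and 1 lower at an unadjusted p under 0.05 and by DESeq2.

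**Figure D3:**
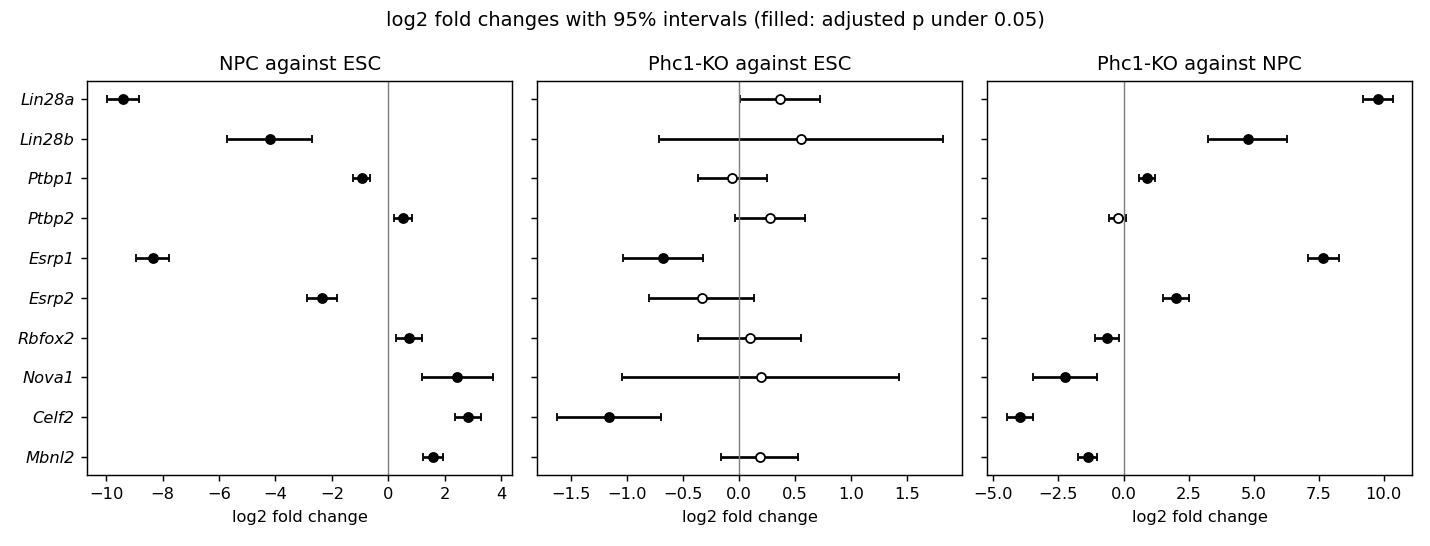
Log2 fold change of each of the 10 regulators with its 95% interval, in a panel for each of the 3 comparisons; the horizontal ranges differ between panels. In Phc1-KO against ESC the values lie between -1.16 and 0.56, and in NPC against ESC between -9.41 and 2.83.

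Celf2, a regulator of splicing and mRNA stability in brain, heart and lymphocytes (mm9 chromosome 2, 6460751 to 7002348, minus strand), had 12.1 and 9.62 CPM in Phc1-KO, 195.1 and 150.3 CPM in NPC, and 26.1 and 22.5 CPM in ESC. The groups did not overlap, and Phc1-KO lay below ESC while NPC lay above it. NPC against ESC gave 2.83 (SE 0.20, edgeR adjusted p = 5.26e-05) and Phc1-KO against NPC -3.99 (SE 0.21, edgeR adjusted p = 1.88e-05). Phc1-KO fell below ESC by 1.16 on the log2 scale (SE 0.20, edgeR adjusted p = 0.0172). That call was lost with the ESC pair counted as 1 library (edgeR adjusted p = 0.105), without ESC 1 (0.16) or ESC 2 (0.102), and without Phc1-KO 2 (0.111). It is the member with the widest difference within the ESC pair relative to counting, 424 and 370 counts.

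Mbnl2, which promotes adult splice forms in brain (mm9 chromosome 14, 120674891 to 120830919, plus strand), had 93.2 and 77.7 CPM in Phc1-KO, 205.8 and 240.3 CPM in NPC, and 76.0 and 74.4 CPM in ESC. NPC lay above the other 4 libraries, and the Phc1-KO values lay just above those of ESC. The rise in NPC was 1.57 (SE 0.15, edgeR adjusted p = 1.68e-04) against ESC. Phc1-KO gave -1.38 (SE 0.15, edgeR adjusted p = 2.46e-04) against NPC and 0.19 (SE 0.15, edgeR adjusted p = 0.439) against ESC. Its paralog Mbnl1, the member of the family best known from myotonic dystrophy, had 91.7 and 88.8 CPM in Phc1-KO, 205.8 and 222.6 CPM in NPC, and 44.5 and 44.3 CPM in ESC. Mbnl1 rose in NPC by 2.27 (SE 0.12) and in Phc1-KO by 1.02 (SE 0.12, edgeR adjusted p = 0.00688) against ESC. Mbnl3 rose in NPC by 1.87 (SE 0.16) and gave -0.10 (SE 0.16) in Phc1-KO.

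Nova1, a neuronal regulator of synaptic protein splice forms (mm9 chromosome 12, 47795504 to 47919762, minus strand), had 13.55 and 11.55 CPM in Phc1-KO, 93.1 and 26.2 CPM in NPC, and 11.64 and 10.3 CPM in ESC. NPC lay highest, with NPC 1 well above NPC 2, and Phc1-KO and ESC overlapped. The rise in NPC against ESC was 2.44 (SE 0.53, edgeR adjusted p = 0.00623), 1.26 without NPC 1 and 3.09 without NPC 2, passing in both. Phc1-KO against NPC gave -2.25 (SE 0.53, edgeR adjusted p = 0.0078), -1.06 without NPC 1 and -2.89 without NPC 2, and it did not pass without Phc1-KO 1 (0.0709) or Phc1-KO 2 (0.0933). Phc1-KO against ESC gave 0.20 (SE 0.52, edgeR adjusted p = 0.835). Its paralog Nova2 rose in NPC by 1.29 (SE 0.38, edgeR adjusted p = 0.0223), a call lost with the ESC pair as 1 library (0.0955) and without ESC 1 (0.0778), ESC 2 (0.13) or NPC 1 (0.054). Nova2 gave -0.87 (SE 0.40, edgeR adjusted p = 0.202) in Phc1-KO.

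Rbfox2, the broadly expressed Rbfox protein, which binds GCAUG (mm9 chromosome 15, 76909420 to 77137483, minus strand), had 227.0 and 197.8 CPM in Phc1-KO, 266.0 and 395.0 CPM in NPC, and 200.9 and 197.2 CPM in ESC. It was high in every group, highest in NPC, and Phc1-KO and ESC overlapped. The rise in NPC against ESC was 0.73 (SE 0.20, edgeR adjusted p = 0.0148), with 0.99 without NPC 1 and 0.42 without NPC 2. That call was lost with the ESC pair counted as 1 library (edgeR adjusted p = 0.091), without ESC 1 (0.0799) and without ESC 2 (0.0898). Phc1-KO against NPC gave -0.64 (SE 0.20, edgeR adjusted p = 0.0237), a call lost with only those groups fitted (0.0662), with the ESC pair as 1 library (0.058), and without ESC 1 (0.0521), ESC 2 (0.0514), NPC 2 (0.0842), Phc1-KO 1 (0.0672) or Phc1-KO 2 (0.144). Rbfox1, the paralog of neurons and muscle, rose in NPC by 3.31 (SE 0.42, edgeR adjusted p = 5.50e-04). Rbfox3, the neuronal antigen NeuN, gave -2.12 (SE 0.96, edgeR adjusted p = 0.091); it was -1.14 without NPC 2 and a called -6.70 without NPC 1 (0.0212), where the remaining NPC library held 0 counts, so that value is no measure of size.

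Per length, the mean levels of these 4 in NPC were 48.9 CPM per kb for Mbnl2, 44.6 for Rbfox2, 14.1 for Celf2 and 8.52 for Nova1. In ESC the same means were 16.5, 26.9, 1.98 and 1.57 CPM per kb. Rbfox2 was thus the highest of them in ESC, and in NPC its libraries overlapped in level with those of Mbnl2 within their spread (SD 12.3 and 5.35 CPM per kb, n = 2 each). Among the other Celf genes, Celf1 fell in NPC against ESC by 0.52 (SE 0.12), a call lost with the ESC pair as 1 library (edgeR adjusted p = 0.0664) and without ESC 1 (0.0669) or ESC 2 (0.0932). Celf4 fell by 1.79 (SE 0.42), with -2.70 without NPC 1 and -1.23 without NPC 2. Celf3 gave 0.25 and Celf5 -0.05, neither called, and Celf6 was too low to test. In all, 4 of 10 tested paralogs of the members were higher and 2 lower in NPC against ESC, where 30.4% and 30.9% of all genes were. In Phc1-KO against ESC 1 paralog was higher and 1 lower, where 4.91% and 5.75% of all genes were.

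Markers of other cells moved with these changes, and their part in them was not tested. The 5 NPC markers summed to 198.9 and 180.8 CPM in Phc1-KO, 3351 and 1500 CPM in NPC, and 204.3 and 215.0 CPM in ESC. Nes made up most of the sum in Phc1-KO (147.5 and 122 CPM) and in ESC (155.7 and 165.1 CPM). Pax6 differed from the sum, with 21.44 and 20.73 CPM in Phc1-KO, 20.95 and 16.93 CPM in NPC, and 4.435 and 4.678 CPM in ESC. Mean levels of Nes, Fabp7 and Slc1a3 were lower in Phc1-KO than in ESC. Lin28b and Nova1 were higher in NPC 1, as were the progenitor genes Fabp7 (1353 and 458 CPM in NPC 1 and NPC 2) and Olig2 (254.1 and 58.5 CPM). The 5 astrocyte markers summed to 14.7 and 18.5 CPM in Phc1-KO, 245.6 and 781.7 CPM in NPC, and 69.4 and 67.9 CPM in ESC. Aldoc made up most of the difference between Phc1-KO and ESC (4.132 and 6.426 against 52.05 and 51.82 CPM), while Slc1a2 was higher in Phc1-KO (3.191 and 3.672 against 2.772 and 1.701 CPM). The higher sum in NPC 2, where Rbfox2 was also higher, came from the water channel Aqp4 (15.8 and 457.4 CPM in NPC 1 and NPC 2) and the filament Gfap (3.81 and 111.5 CPM), while Aldoc was lower there (55.2 and 39.4 CPM). Most of the neuron marker sum was 1 gene: Map2 in NPC (1004 and 447.5 CPM), and Stmn2 in Phc1-KO (135.2 and 137.7 CPM) and ESC (115.6 and 104 CPM). The 7 neuron markers summed to 201.4 and 204.2 CPM in Phc1-KO, 1065 and 494.4 CPM in NPC, and 188.4 and 176.6 CPM in ESC. Of these Map2, Dcx, Snap25 and Syt1 rose in NPC, while Tubb3 and Stmn2 fell; the Snap25 call was lost under several settings, with 0.50 and an edgeR adjusted p = 0.173 without NPC 1. The 8 fibroblast markers, genes also found in feeder cells, summed to 914.7 and 727.9 CPM in Phc1-KO, 6848 and 10940 CPM in NPC, and 394.2 and 383.1 CPM in ESC. Phc1-KO and ESC differed most for Postn (167.6 and 198 against 4.62 and 4.921 CPM), Dcn (45.4 and 29.81 against 2.71 and 3.159) and Pdgfra (135.6 and 92.57 against 16.57 and 14.4). Lum, Thy1 and Col1a2 were also higher in both Phc1-KO libraries, Col1a1 overlapped, and Col3a1 was lower (71.81 and 51.75 against 73.31 and 76.19). The 4 epithelial markers summed to 798.4 and 725.5 CPM in Phc1-KO, 1.71 and 1.69 CPM in NPC, and 984.6 and 949.6 CPM in ESC. The 5 oligodendrocyte markers summed to at most 18.1 CPM in any library. The 4 macrophage markers summed to 10.25 and 10.73 CPM in Phc1-KO, 3.74 and 3.37 CPM in NPC, and 26.3 and 25.2 CPM in ESC. Emr1 made up most of the difference between Phc1-KO and ESC (0.209 and 0.242 against 11.95 and 12.03 CPM).

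Beyond the members, most of the general splicing machinery was lower in NPC. Of 27 core spliceosome genes 22 were lower and 0 higher in NPC against ESC by edgeR, 23 and 0 at an unadjusted p under 0.05 and by DESeq2 (median -0.85, against -0.01 for all genes). All 27 values lay between -1.41 and -0.04. The Sm protein gene Snrpd1 changed by -1.41 (SE 0.15) and Cdc5l, of the Prp19 complex, by -1.39 (SE 0.12). In Phc1-KO against ESC 2 of the 27 were higher, Prpf4 (0.82, SE 0.13) of the tri-snRNP and Prpf19 (0.77, SE 0.19), with 5 higher by DESeq2 and 8 at an unadjusted p under 0.05. Of 23 hnRNP genes, the class to which Ptbp proteins belong, 15 were lower and 1 higher in NPC (median -0.57). Hnrnpd (-1.39, SE 0.25) and Hnrnpa1 (-1.36, SE 0.24) fell most and Hnrnpr rose by 0.43 (SE 0.12), a call lost with the ESC pair as 1 library (edgeR adjusted p = 0.208), whereas in Phc1-KO edgeR called Hnrnpm alone, higher by 0.71 (SE 0.14), with 2 higher by DESeq2 and 6 at an unadjusted p under 0.05. Of 13 SR and Tra2 genes, which commonly promote exon inclusion, 8 were lower in NPC (median -0.43), led by Tra2a (-1.58, SE 0.13) and Srsf7 (-1.32, SE 0.16). For Phc1-KO against ESC edgeR and DESeq2 called 0 of the 13, with 1 higher and 1 lower at an unadjusted p under 0.05.

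**Figure D4:**
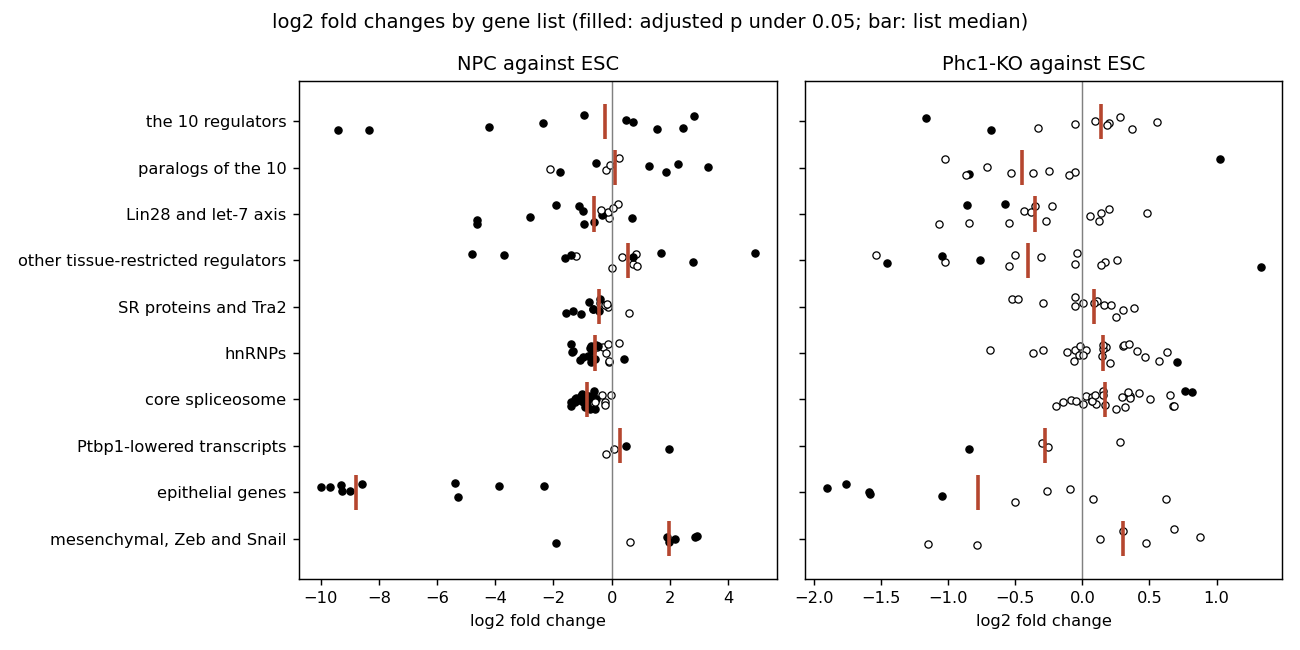
Log2 fold change of every tested gene of each list, in a panel each for NPC and Phc1-KO against ESC (horizontal ranges differ), with filled points for genes that passed the test and a line at the list's median. Epithelial genes lie lowest in NPC against ESC (median -8.79), and all 27 core spliceosome genes lie below 0 there.

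Other tissue-restricted splicing regulators changed in both directions. Of 14 tested, 4 were higher and 4 lower in NPC against ESC, close to the 30.4% and 30.9% of all genes. In Phc1-KO against ESC 1 was higher and 3 lower, where 4.91% and 5.75% of all genes were. Rbms3, an RNA-binding protein of mesenchyme, rose in both NPC (4.92, SE 0.28) and Phc1-KO (1.33, SE 0.25, edgeR adjusted p = 0.0238). Rbm24, a muscle regulator, rose in NPC by 2.78 (SE 0.39). Rbm47, an epithelial and endodermal regulator, fell in both NPC (-4.80, SE 0.34, and -5.53 without NPC 2) and Phc1-KO (-1.46, SE 0.27, edgeR adjusted p = 0.0233). The neuronal Elavl2 changed by -3.68 (SE 0.56) in NPC, -5.11 without NPC 1 and -2.97 without NPC 2. Msi1, the progenitor protein Musashi, fell in Phc1-KO by 1.05 (SE 0.24, edgeR adjusted p = 0.0398), as did Raver2, a Ptbp1 partner, by 0.77 (SE 0.14, edgeR adjusted p = 0.0226).

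The genes most like each member were found by the root-mean-square difference of centred log2 CPM over the 6 libraries. A smaller value is a closer match, and unnamed and numbered gene models were left out. Vrtn and Marveld3 had 0 CPM in both NPC libraries and Dnmt3l 0.06568 and 0.1297 CPM, so their distances depend on the prior count of 0.5. Lin28a was closest to Dnmt3l (0.170) and Vrtn (0.230), and Lin28b to Bex4 (0.148) and Grhl2 (0.165). Esrp1 was closest to Marveld3 (0.302) and Epcam (0.313), and Esrp2 to SNORD18 (0.082) and Tgif1 (0.100). Ptbp1 was closest to Mre11a (0.049) and Vil1 (0.057), and Ptbp2 to Ric8 (0.035) and Fdx1 (0.039). Nova1 was closest to Plekhb1 (0.085) and Stambpl1 (0.202), and Celf2 to Rgs9 (0.108) and Fam70a (0.124). Rbfox2 was closest to Bahd1 (0.053) and Ggta1 (0.065), and Mbnl2 to Lrrc28 (0.057) and Dcaf7 (0.066).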

How the data were processed

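RNA of 6 libraries was sequenced as 50-base single-end reads after removal of ribosomal RNA, per the labels. The deposited tables hold raw, whole-number counts per Ensembl gene; the authors used STAR and HTSeq with mm9, per the submitters' processing notes. Their versions, the annotation and the use of strand: not given in the sources used here. Every table held 37620 genes and 5 closing tallies, which were left out; GENCODE M1 named 37205 genes and left 415 unnamed.

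All 6 libraries were fitted together with edgeR 4.0.16 in R 4.3.3 (quasi-likelihood F test, 1 term per group, 3 residual degrees of freedom). TMM scaling and filterByExpr (minimum count 10, minimum total 15) left 17489 genes. P-values were adjusted by Benjamini-Hochberg over all of them, with a threshold of 0.05. SE is the log2 fold change over the square root of F. Ratios of paralogs used a prior count of 0.5. The fit was tested on simulated data. Figures used matplotlib 3.10.9.

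The members and the lists were chosen with earlier results of these data known. Named genes were all members and their paralogs, the 2 largest rises and falls that passed per list in NPC and in Phc1-KO against ESC, and the 2 genes most like each member. Drosha, Igf2bp1, Hmga2, Gabbr1, Cdh1, Raver2, the cell markers and the let-7 genes were named after their values were seen. Of 16 other tissue-restricted regulators 15 were used, since Qk matched 2 identifiers, and Zeb1 was listed at 0 throughout. Replicate numbers did not pair the libraries (correlations of deviations 0.014, 0.046 and -0.027). Alternatives included DESeq2 1.42.0, other scalings and filters, a replicate block, the ESC pair as 1 library and each library left out.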

Additional observations from a re-analysis of the deposited data

How the results depend on the processing

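Each of the 3 comparisons was refitted under 15 alternatives. For the members, 418 of 450 values kept direction and call, 26 lost the call, 4 gained it and 2 changed sign, neither being called: in Phc1-KO against ESC, with a library left out, Ptbp1 ran between -0.147 and 0.031 and Rbfox2 between -0.004 and 0.192. Of the other named genes, 41 were called in NPC against ESC, 15 in Phc1-KO against ESC and 33 in Phc1-KO against NPC; 7, 15 and 5 of these lost the call under at least 1 alternative, and 3, 5 and 4 others gained one. Phc1-KO against ESC had 1864 genes called. This became 3899 with only the 2 groups fitted, 145 with the ESC pair as 1 library, and 92 to 3715 with a library left out. The members called there numbered 1 with no low-count filter, 0 with the ESC pair as 1 library, and 0 to 3 with a library left out. The replicate block gave 1427 genes and 1 member there (Esrp1 had adjusted p = 0.0581, and Prpf19 and Dis3l2 also lost the call; Rbfox3 gained it in NPC against ESC, -2.203 with adjusted p = 0.0418), 10424 genes in NPC against ESC and 11061 in Phc1-KO against NPC, and left the paralog ratios as they were. Total-count scaling split the calls of Phc1-KO against ESC into 683 higher and 1223 lower, against 858 and 1006. Upper-quartile scaling moved the median of all genes to -0.11 in NPC against ESC. Other changes of sign were between values not called, except that Ptbp3 passed at its low end. With a library left out, NPC against ESC ran between -0.413 and 0.033 for Ptbp3, -0.052 and 0.185 for Gabbr1 (-0.025 with upper-quartile scaling), -0.772 and 0.086 for Mirlet7d, -0.039 and 0.492 for Celf3, and -0.129 and 0.041 for Celf5. Phc1-KO against ESC ran between -0.644 and 0.067 for Celf3, -0.098 and 0.291 for Srsf7, -0.734 and 0.114 for Dlg4, -0.241 and 0.043 for Cdh1, -0.018 and 0.140 for Trim71, -0.065 and 0.031 for Hnrnpr, and -0.363 and 0.341 for Hnrnpa1 (-0.025 without ESC 2). Trim71 gave -0.024 and Hnrnpa1 -0.049 with total-count scaling. Hnrnpa1 gave -0.003 with upper-quartile scaling and -0.001 with the replicate block. Hnrnpr gave 0.008 with DESeq2 and with its size factors. The causes were not tested.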

Other observations

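The 9 let-7 family genes in the tables were also read; they were chosen after values had been seen, and libraries of this kind count precursors and host transcripts and not mature microRNAs. Their summed counts were 60 and 102 in Phc1-KO, 73 and 70 in NPC, and 64 and 62 in ESC. Scaled to library size they were 3.14 and 4.93 CPM in Phc1-KO, 4.80 and 4.54 CPM in NPC, and 3.94 and 3.77 CPM in ESC. Phc1-KO overlapped both other groups. NPC lay above ESC only with Mirlet7c-1 in the sum, and without that gene NPC lay below ESC. The sum was not tested. Mirlet7c-1, whose hairpin is printed in the report, had 0 and 0 counts in Phc1-KO, 20 and 24 in NPC, and 2 and 2 in ESC. It rose in NPC against ESC by 3.48 on the log2 scale (SE 0.49, edgeR adjusted p = 0.00141) and was at least 19.1-fold lower in Phc1-KO than in NPC, taking 3 counts over both Phc1-KO libraries as the floor. Phc1-KO against ESC did not pass (edgeR adjusted p = 0.0814). Mirlet7d gave -0.29 (SE 0.41) and Mirlet7a-1 0.80 (SE 0.70) in NPC against ESC, neither called, and the other 6 were too low to test. Of these, Mirlet7g, whose hairpin is also printed, had 9 and 6 counts in Phc1-KO, 0 and 1 in NPC, and 7 and 7 in ESC. Counts of Mir98 and Mirlet7i were also lower in NPC than in ESC. Those of Mirlet7b and Mirlet7c-2 were higher in NPC, and those of Mirlet7f-2 were alike.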
